A study of Mus musculus with 12 samples.

Results

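The fibroblast growth factor (FGF) and MAPK feedback genes examined here are 10 of the 57180 genes in the deposited tables. They were chosen by symbol and comprise the ligands Fgf4, Fgf5, Fgf8 and Fgf15, the receptors Fgfr1 and Fgfr2, and the feedback genes Dusp6, Spry2, Spry4 and Spred1. All 10 were found under their symbols and all 10 had enough counts to be tested.

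FGF ligands bind receptor tyrosine kinases at the cell surface, which pass the signal through adaptors, RAS, RAF and MEK to the kinases ERK1 and ERK2. ERK switches on transcription factors and, among the transcribed genes, its own inhibitors: DUSP6 is a phosphatase that inactivates ERK in the cytoplasm, whereas the Sprouty (Spry) and Spred proteins act on the steps between receptor and RAF. In mouse pluripotent cells, FGF4 made by the cells themselves drives ERK and is needed for the exit from naive pluripotency, and culture with a MEK inhibitor holds cells in the naive state. Fgf5 is the classical marker gene of the epiblast after implantation.

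RNA was sequenced in 12 libraries of E14 mouse embryonic stem cells (ESCs), a male line of the 129/Ola strain, with 3 libraries in each of 4 groups. All groups carried a doxycycline-inducible CRISPR interference repressor at the Tigre locus, in a line derived from 1 clone, and integrated guide RNAs. Neg cells carried scramble guides and 3xKD cells carried guides against Pcx, Me1 and Me2, which encode pyruvate carboxylase and 2 malic enzymes. Each line was sequenced as ESCs, kept in N2B27 with LIF, a GSK3 inhibitor and the MEK inhibitor PD0325901, and as epiblast-like cells (EpiLCs) at day 2 of culture with Activin A, added FGF2 and the tankyrase inhibitor XAV939. By the study's methods both lines were kept in low oxygen and received DMSO or doxycycline, first in ESC medium and then through the ESC or EpiLC culture. A figure legend of the study gives doxycycline for its expression values of both lines and states. The labels do not name doxycycline, and their cell-type field goes against the sample titles, which were followed here. EpiLC culture thus removed LIF, the GSK3 inhibitor and the MEK inhibitor and added Activin A, FGF2 and XAV939. These changes and the change of cell state cannot be told apart in any comparison of EpiLCs with ESCs. Cells of the same state shared their medium, but Neg and 3xKD cells are different guide lines. The knockdown therefore cannot be told apart from any other difference between these lines. The term knockdown effect below means 3xKD against Neg.

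The libraries held 11221023 to 19652197 counts and separated by state on the first principal component (56.5% of the variance over 15032 genes) and by line on the second (20.8%). The guide targets were lower in 3xKD cells in both states, with log2 fold changes for Pcx of -1.14 in ESCs and -1.05 in EpiLCs, for Me1 of -0.89 and -1.05, and -0.95 and -0.98 in the case of Me2. State labels were checked with marker genes. The summed level of 7 naive markers was 3740 to 4822 CPM (counts scaled to a common library total) in ESC libraries and 244.5 to 401 in EpiLC libraries, and that of 4 formative markers was 100.4 to 110.1 and 813.4 to 1897. Sums for 6 primitive endoderm, 4 mesoderm and 4 trophoblast markers stayed between 1.477 and 30.97 CPM in every library, and 4 neuroectoderm markers summed to 6.036 to 10.1 in ESCs and 23.39 to 71.35 in EpiLCs; no marker was at 0 in all 12 libraries. The study's methods describe experiments in general as done in biological replicates, but the labels do not say whether libraries of a group came from separate cultures. The p-values measure the spread between these libraries, which may be in part technical.

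Both receptor genes carry a pair of mutually exclusive exons, IIIb and IIIc, that encode alternative ends of the third immunoglobulin-like domain and set which ligands bind. FGF4 and FGF8 bind the IIIc rather than the IIIb forms.

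Levels of different genes were set side by side as TPM, which are scaled by transcript length. In Neg ESCs, Fgfr1 (27.4 ± 0.50 TPM, SD, n = 3) and Fgf4 (23.0 ± 9.7) were the highest of the 10 genes, followed by Spry2 (13.7 ± 2.0), Spred1 (6.57 ± 1.3) and Dusp6 (2.04 ± 1.1). Fgfr2, Fgf8, Spry4, Fgf5 and Fgf15 were all under 1 TPM on average. The ranges of Fgfr1 and Fgf4 overlapped, as did those of Dusp6 and Fgfr2, of Fgf8 and Spry4, and of Fgf5 and Fgf15. In Neg EpiLCs the order was Fgf4 (75.4 ± 6.1), Dusp6 (67.4 ± 2.9), Spry2 (49.96 ± 4.2), Fgfr1 (32.0 ± 0.37), Spry4 (20.9 ± 1.7), Spred1 (18.8 ± 1.9), Fgf5 (12.6 ± 0.47), Fgf15 (10.02 ± 0.57), Fgfr2 (4.61 ± 0.81) and Fgf8 (0.635 ± 0.15). Among these neighbours the libraries of Fgf4 and Dusp6, and those of Spry4 and Spred1, overlapped. All values below are CPM, which compare 1 gene between libraries and not 1 gene with another.

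**Figure D1:**
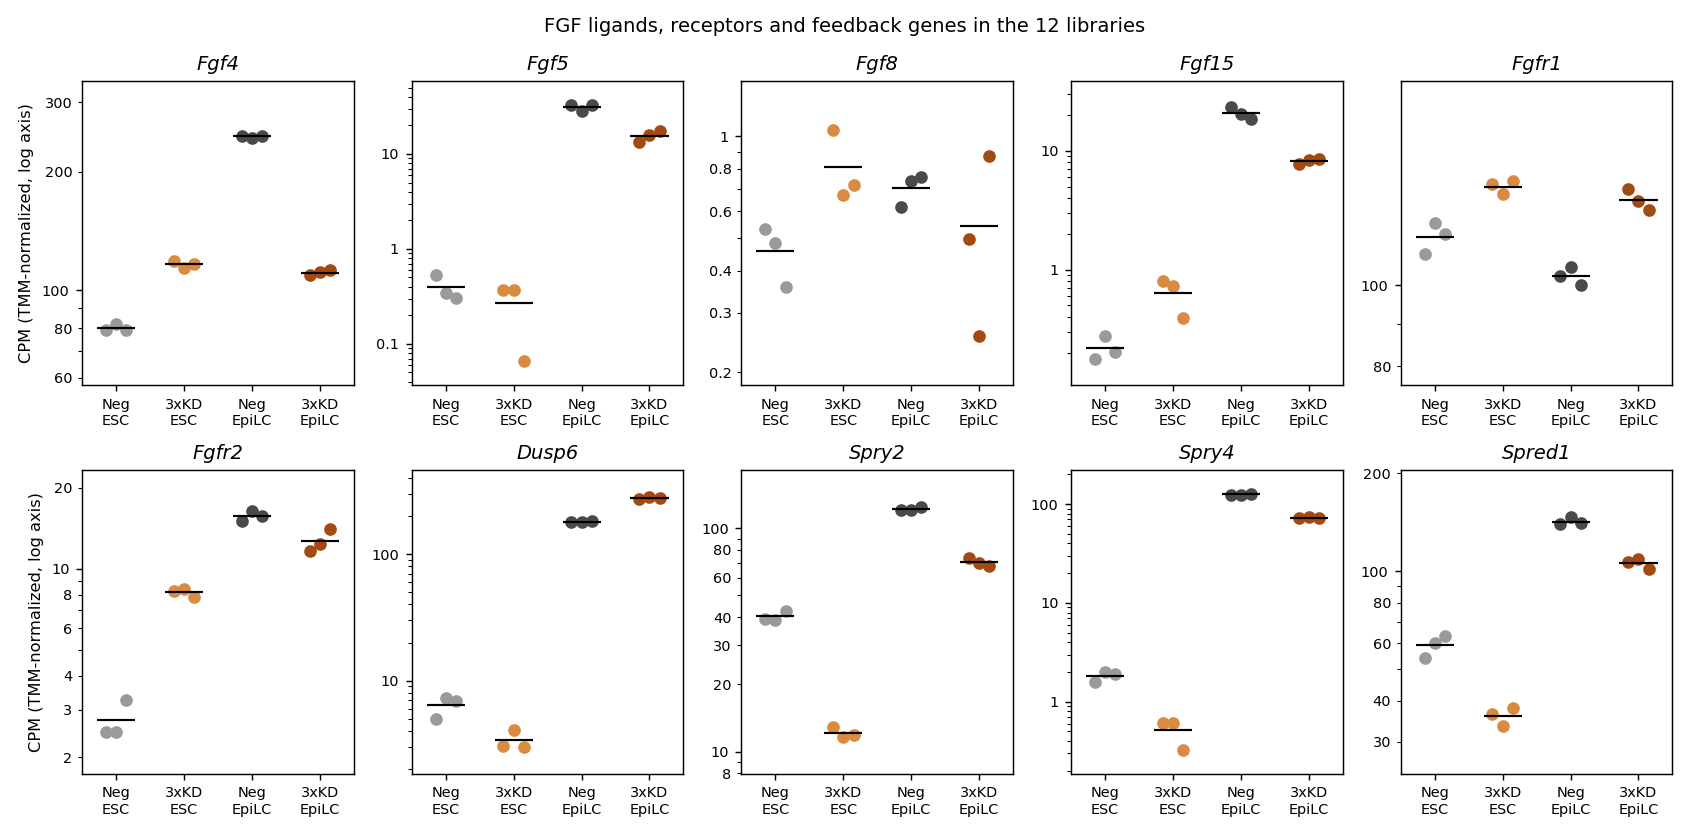
Level of each of the 10 genes in the 12 libraries (CPM with TMM normalization, log axis with its own range in each panel), with 1 point per library, 3 libraries per group and a black line at the group mean. Fgf4 sits near 80 CPM in Neg ESCs and near 245.7 in Neg EpiLCs but between 109 and 119 in both groups of 3xKD cells, and Dusp6 is highest in 3xKD EpiLCs while Spry2, Spry4 and Spred1 are highest in Neg EpiLCs.

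The state comparison asked how the genes differ between naive ESCs and EpiLCs. In Neg cells 8 of the 10 genes were called higher in EpiLCs and none lower, where a call is a Benjamini-Hochberg adjusted p under 0.01 in the edgeR quasi-likelihood test together with an absolute log2 fold change above 0.58. Over all 25446 genes tested, 20.8% were called in this comparison (9.78% higher and 11% lower). In 3xKD cells 7 of the 10 were called higher and none lower, against a background of 18.7% (9.42% higher and 9.32% lower). Over genes whose mean reached 1 CPM, as it did for all of the 10 but Fgf8, the backgrounds were 30.7% in Neg and 27.9% in 3xKD cells. Libraries of the 2 states did not overlap for any of the 10 genes in Neg cells (51.7% of all genes did not overlap) and overlapped for Fgf8 and Fgfr1 in 3xKD cells (51.7%). The 2 comparisons have no library in common, but all 12 libraries were in 1 fit, so the 2 tests share its estimate of the spread. As these are bulk samples, fewer cells of a type and less RNA per cell cannot be told apart.

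The knockdown comparison asked how the same genes differ between 3xKD and Neg cells within a state. In ESCs 2 of the 10 genes were called higher (Fgf15 and Fgfr2) and 4 lower (Dusp6, Spry2, Spry4 and Spred1), beside 15.3% of all genes called (8.50% higher and 6.76% lower). All 4 feedback genes were thus lower in 3xKD ESCs. In EpiLCs 1 gene was called higher (Dusp6) and 5 lower (Fgf4, Fgf5, Fgf15, Spry2 and Spry4), beside 13.2% of all genes (7.88% higher and 5.35% lower). Over genes whose mean reached 1 CPM the backgrounds were 23.6% in ESCs and 20.8% in EpiLCs. Libraries of 3xKD and Neg cells did not overlap for 9 of the 10 genes in ESCs (all but Fgf5, background 49.0%) and for 9 of the 10 in EpiLCs (all but Fgf8, background 47.2%). The median log2 fold change over the 10 genes was -0.13 in ESCs and -0.60 in EpiLCs, against 0.03 over all genes tested in each state.

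A further test took the difference between those 2 effects, that is, the log2 fold change of 3xKD against Neg in EpiLCs minus that in ESCs. It passed for 6 of the 10 genes at an adjusted p under 0.01, against 10% of all genes (4.76% higher and 5.27% lower). Dusp6, Spry2 and Spry4 had a more positive knockdown effect in EpiLCs, and Fgf4, Fgf15 and Fgfr2 a more negative one.

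**Figure D2:**
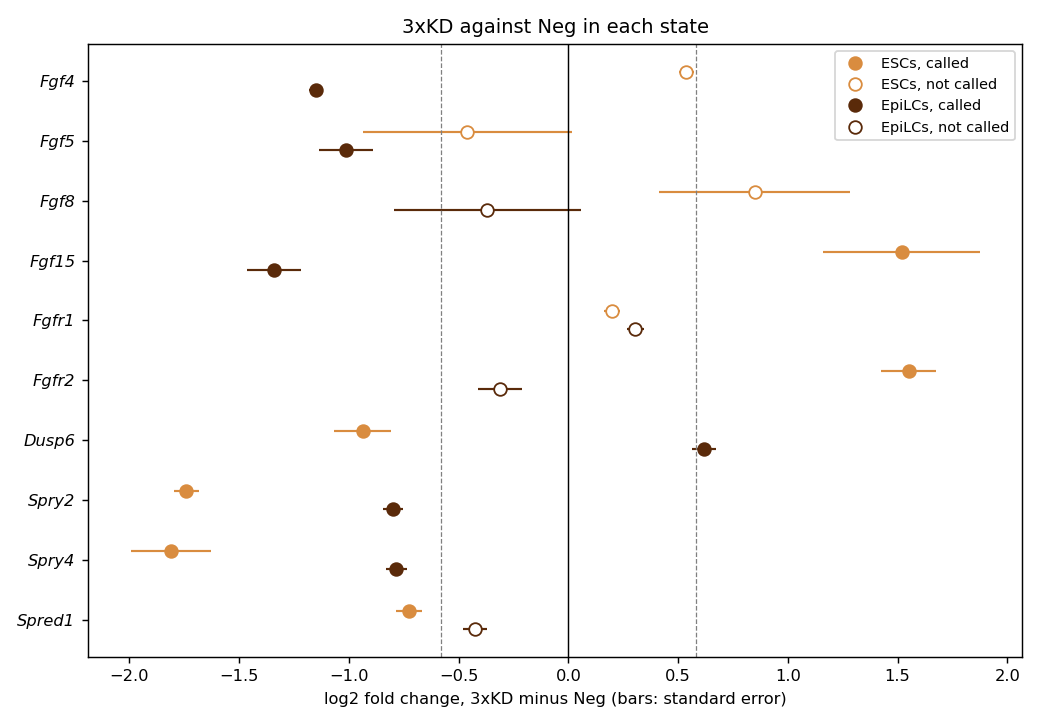
Log2 fold change of 3xKD against Neg cells for each of the 10 genes in ESCs and in EpiLCs (x axis, with bars of 1 standard error), with filled points for called changes and dashed lines at the fold limit of 0.58 in each direction. Fgf4, Fgf15, Fgfr2 and Dusp6 lie on opposite sides of 0 in the 2 states, as does Fgf8, which was not called in either, whereas Spry2, Spry4 and Spred1 lie below 0 in both and nearer to 0 in EpiLCs.

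Among the ligands, Fgf4 is made by ESCs and by the inner cell mass of the blastocyst. The gene (ENSMUSG00000050917) lies at chr7:144415012-144418985 on the plus strand and has 3 exons. Its level was 79.2, 82.2 and 79.1 CPM in Neg ESCs, 119, 114 and 117 in 3xKD ESCs, 247, 243 and 247 in Neg EpiLCs, and 109.0, 111.3 and 112.4 in 3xKD EpiLCs. The 3xKD libraries were above the Neg libraries in ESCs and below them in EpiLCs, without overlap in either state. In Neg cells Fgf4 was 3.06-fold higher in EpiLCs than in ESCs (log2 fold change 1.62, SE 0.033, adjusted p = 3.01e-16). Between the 3xKD groups the difference was -0.07 (SE 0.032, adjusted p = 0.0922). The knockdown effect was a log2 fold change of 0.54 (SE 0.033, adjusted p = 1.39e-09) in ESCs, which was under the fold limit and so not called, and -1.15 (SE 0.032, adjusted p = 6.35e-13) in EpiLCs. These effects differed by -1.69 (SE 0.046, adjusted p = 2.64e-12).

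Fgf5 (ENSMUSG00000029337, chr5:98401780-98424889, plus strand, 3 exons) was near its detection limit in ESCs, with 1 to 6 counts per library. It stood at 0.532, 0.344 and 0.306 CPM in Neg ESCs and 0.369, 0.366 and 0.0653 in 3xKD ESCs. In EpiLCs it reached 33.0, 28.1 and 32.8 CPM in the Neg libraries and 13.3, 15.9 and 17.4 in the 3xKD libraries. The EpiLC groups did not overlap, and the ESC groups did. Fgf5 rose from ESCs to EpiLCs in both lines, with a log2 fold change of 6.35 (SE 0.21, adjusted p = 2.21e-13) in Neg cells and 5.80 (SE 0.24, adjusted p = 3.8e-12) in 3xKD cells. Within EpiLCs it was 2.02-fold lower in 3xKD cells (log2 fold change -1.01, SE 0.12, adjusted p = 4.92e-06). In ESCs the value was -0.46 (SE 0.48, adjusted p = 0.528), and the difference between the 2 effects (-0.55, SE 0.52, adjusted p = 0.571) did not pass at this depth.

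Fgf15, the mouse counterpart of human FGF19 and a hormone-like FGF best known from bile acid control in the gut, had the largest difference of the knockdown effect between states among the 10 genes. The gene (ENSMUSG00000031073, chr7:144450268-144454690, plus strand, 3 exons) had 2, 4 and 4 counts in Neg ESCs and 13, 12 and 6 in 3xKD ESCs, or 0.177, 0.275 and 0.204 CPM against 0.799, 0.732 and 0.392. In EpiLCs its level was 23.3, 20.3 and 18.7 CPM in Neg cells and 7.69, 8.31 and 8.62 in 3xKD cells. Every 3xKD library was thus above the Neg libraries in ESCs and below them in EpiLCs. The rise from ESCs to EpiLCs was a log2 fold change of 6.51 (SE 0.21, adjusted p = 1.37e-13) in Neg cells and 3.65 (SE 0.19, adjusted p = 6.68e-11) in 3xKD cells. Knockdown effects were 1.52 (SE 0.36, adjusted p = 0.00495) in ESCs and -1.34 (SE 0.12, adjusted p = 1.67e-07) in EpiLCs, and they differed by -2.86 (SE 0.37, adjusted p = 4.31e-05). The call in ESCs rests on these few counts and was lost in 6 of 20 alternatives, 4 of which left out a single ESC library (Neg replicate 1 or 3, 3xKD replicate 1 or 2, with log2 fold changes of 1.36 to 1.44). Antisense genes (Gm26793 and Gm39119) overlap Fgf15 on the other strand.

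Fgf8, which acts in the primitive streak during gastrulation, was near its detection limit everywhere. The gene (ENSMUSG00000025219, chr19:45725237-45731354, minus strand, 5 exons) had 4 to 17 counts per library. Its level was 0.532, 0.482 and 0.357 CPM in Neg ESCs, 1.04, 0.671 and 0.719 in 3xKD ESCs, 0.616, 0.738 and 0.759 in Neg EpiLCs, and 0.496, 0.256 and 0.874 in 3xKD EpiLCs. No comparison of Fgf8 was called, and adjusted p lay between 0.141 (3xKD against Neg in ESCs, log2 fold change 0.85, SE 0.43) and 0.558 (the same in EpiLCs, -0.37, SE 0.43).

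The ligands Fgf4 and Fgf15 are neighbours: the start of Fgf15 lies 35256 bases from that of Fgf4 on the same strand. This chr7 interval was looked at after the values of both genes had been seen. Fgf3, which starts 23413 bases upstream of Fgf4, had knockdown effects of -0.02 (SE 0.25) in ESCs and -0.77 (SE 0.26, adjusted p = 0.027) in EpiLCs, neither of them called. LTO1, which starts 53835 bases downstream of the start of Fgf4, stood at -0.51 (SE 0.092, adjusted p = 0.000224) in ESCs, which was not called, and was called lower in 3xKD EpiLCs (-0.60, SE 0.092, adjusted p = 5.1e-05). Ccnd1, which encodes cyclin D1, starts 78650 bases downstream of the start of Fgf4 on the opposite strand and was called lower in 3xKD cells in both states (-2.01 in ESCs and -1.74 in EpiLCs). Whether these genes are linked through their position was not tested.

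Of the receptors, Fgfr1 is the main FGF receptor of ESCs and of the epiblast. The gene (ENSMUSG00000031565, chr8:26008745-26066824, plus strand, 18 exons) was at 109, 119 and 115 CPM in Neg ESCs, 132, 129 and 133 in 3xKD ESCs, 103, 105 and 100 in Neg EpiLCs, and 131, 126 and 123 in 3xKD EpiLCs. No comparison of groups was called for it, and the log2 fold changes lay between -0.16 (SE 0.039; Neg EpiLCs against ESCs) and 0.30 (SE 0.038; 3xKD against Neg in EpiLCs). The 3xKD libraries were nevertheless above all Neg libraries of the same state, by 0.20 in ESCs (SE 0.038, adjusted p = 0.000421) and 0.30 in EpiLCs (adjusted p = 6.41e-06), both under the fold limit. With transcript-length offsets the value in ESCs was 0.53, also under it. The difference between these 2 effects was 0.11 (SE 0.054, adjusted p = 0.229). The gene Gm16159 overlaps Fgfr1 on the other strand.

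Fgfr2, the receptor gene that marks primitive endoderm and trophectoderm in the blastocyst, was far lower. The gene (ENSMUSG00000030849, chr7:129763471-129868272, minus strand, 18 exons) was at 2.48, 2.48 and 3.26 CPM in Neg ESCs, 8.29, 8.41 and 7.84 in 3xKD ESCs, 15.0, 16.3 and 15.7 in Neg EpiLCs, and 11.6, 12.3 and 14.0 in 3xKD EpiLCs. In ESCs the 3xKD libraries were 2.93-fold above Neg (log2 fold change 1.55, SE 0.13, adjusted p = 3.73e-08). In EpiLCs they lay below Neg by -0.31 (SE 0.099, adjusted p = 0.02), which was not called. The 2 effects differed by -1.86 (SE 0.16, adjusted p = 6.05e-07). From ESCs to EpiLCs Fgfr2 rose by 2.49 (SE 0.12, adjusted p = 2.43e-11) in Neg cells and by 0.63 (SE 0.10, adjusted p = 0.000101) in 3xKD cells; without 3xKD EpiLC replicate 3 the latter was 0.56 and under the fold limit. The 6 primitive endoderm markers summed to 21.46 to 24.11 CPM in Neg ESCs and 28.14 to 30.97 in 3xKD ESCs, and 1 of the 6 was called higher. In EpiLCs their sum was 23.84 to 28.63 CPM in Neg and 18.22 to 19.79 in 3xKD cells, with 2 called lower. The 4 trophoblast markers summed to 3.923 to 5.098 CPM in Neg ESCs and 2.212 to 2.744 in 3xKD ESCs, with 1 called lower, and their sums overlapped in EpiLCs, again with 1 called lower. The part of these markers in the Fgfr2 result was not tested.

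**Figure D3:**
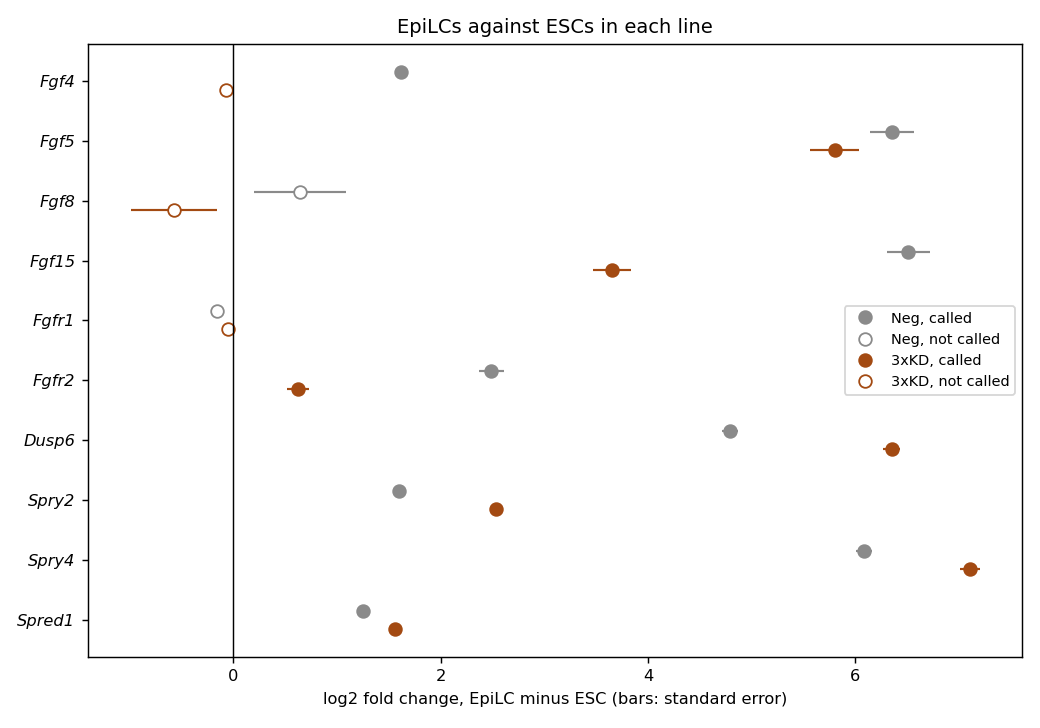
Log2 fold change of EpiLCs against ESCs for each of the 10 genes in Neg and in 3xKD cells (x axis, with bars of 1 standard error), with filled points for called changes. Spry4 and Dusp6 rise more in 3xKD cells (7.11 and 6.35) than in Neg cells (6.08 and 4.79), whereas Fgf4 rises by 1.62 in Neg cells and lies at -0.07 in 3xKD cells. This is the same contrast as the difference of the knockdown effects between states. It was lost for Spry4 in 11 of 19 alternatives and for Dusp6 with transcript-length offsets.

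Most estimated counts of Fgfr1 sat on transcripts with the IIIc exon, which held 1099.5 to 1934.7 counts per library over 3 transcripts, or 79.6% to 89.2% of the gene's count. The 2 transcripts with the IIIb exon held 0 to 134.9 counts (0% to 7.13%), and transcripts with neither exon held the other 8.73% to 16.8%. For Fgfr2, transcripts with the IIIc exon held 14.1 to 59.9 counts in Neg ESCs, 36.5 to 58.2 in 3xKD ESCs, 114.7 to 152.3 in Neg EpiLCs and 56.7 to 96.6 in 3xKD EpiLCs. Those with the IIIb exon held 0 in all Neg ESC libraries and in 2 of the 3 from 3xKD ESCs (60.3 in the other), 25.6 to 78.5 in Neg EpiLCs and 0 to 36.1 in 3xKD EpiLCs. These raw counts depend in part on the level of Fgfr2, which had 28 to 64 counts in Neg ESCs and 243 to 249 in Neg EpiLCs. They did not follow it in every group. The gene had 120 to 138 counts in 3xKD ESCs and 187 to 224 in 3xKD EpiLCs, but the IIIc counts of Neg and 3xKD ESCs overlapped. As a share of the gene's count, the IIIb form was highest in 1 3xKD ESC library (50.2%). It held 10.5% to 32.3% in Neg EpiLCs and 0% to 16.1% in 3xKD EpiLCs. The IIIc form held 25.3% to 93.6% over all libraries. Both varied widely between libraries of a group. Transcripts of Fgfr2 with neither exon held 4.92% to 73.6% of its count per library. These are sums over whole transcripts, as Salmon divided single-end reads between them, and not reads counted on the exons, so no test was made.

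**Figure D4:**
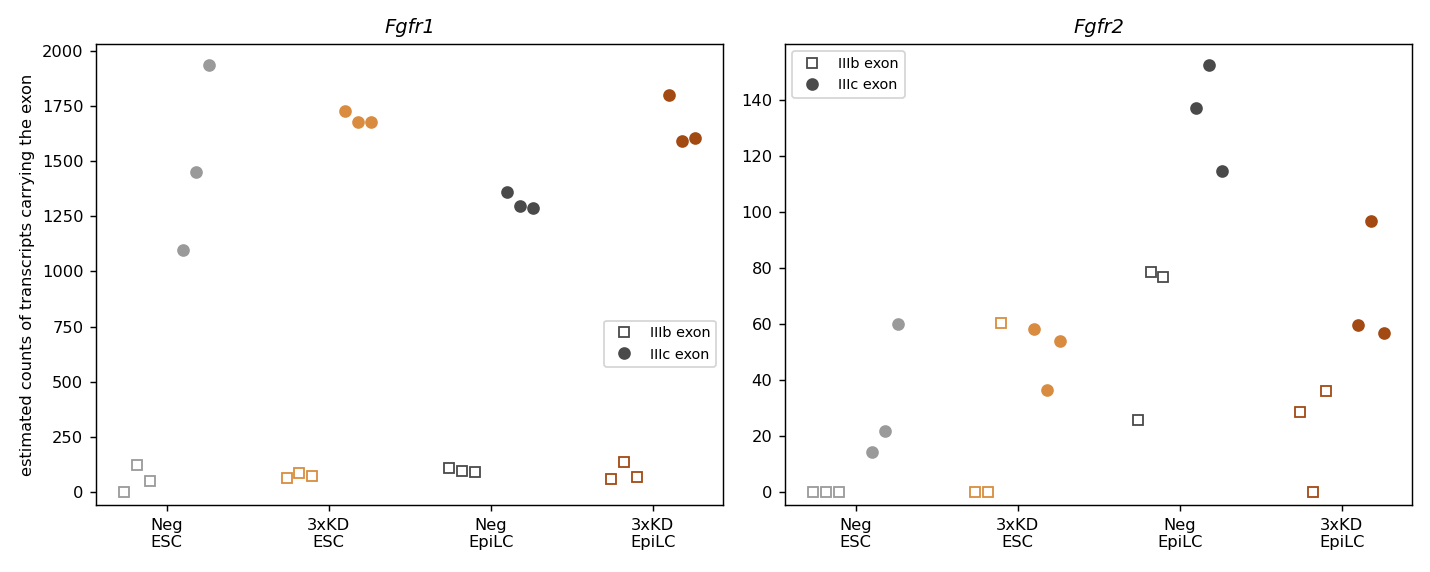
Estimated counts, not normalized for depth, of the Fgfr1 and Fgfr2 transcripts that carry the IIIb exon (open squares) or the IIIc exon (filled circles), with 1 point per library and 3 libraries per group. For Fgfr1 the IIIc form lies between 1099.5 and 1934.7 counts and the IIIb form at 134.9 or below, whereas for Fgfr2 the IIIb form is at 0 in 6 of the 12 libraries.

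Among the feedback genes, Dusp6 parted from the others in EpiLCs. The gene (ENSMUSG00000019960, chr10:99099068-99103361, plus strand, 3 exons) was at 4.96, 7.30 and 6.88 CPM in Neg ESCs and 3.07, 4.09 and 3.01 in 3xKD ESCs, where the MEK inhibitor was present. In EpiLCs it stood at 180, 179 and 182 CPM in Neg cells and 270, 284 and 278 in 3xKD cells. The 3xKD libraries were below the Neg libraries in ESCs and above them in EpiLCs. Dusp6 rose from ESCs to EpiLCs by a log2 fold change of 4.79 (SE 0.079, adjusted p = 2.75e-17) in Neg cells and 6.35 (SE 0.086, adjusted p = 3.27e-18) in 3xKD cells. The knockdown effect was -0.94 (SE 0.13, adjusted p = 1.59e-05) in ESCs and 0.62 (SE 0.055, adjusted p = 1.22e-07) in EpiLCs, a difference of 1.56 (SE 0.14, adjusted p = 9.67e-07). With transcript-length offsets, which follow Salmon's division of reads between transcripts, the same values were -0.67 (adjusted p = 0.101), 0.64 (adjusted p = 0.0324) and 1.31 (adjusted p = 0.0414), none of them called. The genes Gm56965 and Gm34921 overlap Dusp6 on the other strand.

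Spry2, which encodes a Sprouty inhibitor of signalling from receptor tyrosine kinases, fell in 3xKD cells of both states. The gene (ENSMUSG00000022114, chr14:106128766-106134792, minus strand, 2 exons) was at 39.4, 38.8 and 42.8 CPM in Neg ESCs, 12.8, 11.6 and 11.8 in 3xKD ESCs, 121, 121 and 125 in Neg EpiLCs, and 73.3, 69.9 and 67.8 in 3xKD EpiLCs. No library of 3xKD cells reached the Neg range of its state. The knockdown effect was -1.74 (SE 0.058, adjusted p = 1.95e-12) in ESCs, or 3.34-fold lower, and -0.80 (SE 0.046, adjusted p = 9.57e-10) in EpiLCs, or 1.74-fold lower. The effect was smaller in EpiLCs by 0.94 (SE 0.075, adjusted p = 2.29e-07). Spry2 rose from ESCs to EpiLCs by 1.60 (SE 0.049) in Neg cells and 2.54 (SE 0.056) in 3xKD cells.

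Spry4, another Sprouty gene (ENSMUSG00000024427, chr18:38719300-38734468, minus strand, 2 exons), had 5 to 37 counts per ESC library and 1157 to 2017 per EpiLC library. Its level was 1.60, 2.00 and 1.89 CPM in Neg ESCs, 0.614, 0.610 and 0.327 in 3xKD ESCs, 124, 125 and 127 in Neg EpiLCs, and 71.8, 74.2 and 72.5 in 3xKD EpiLCs. The 3xKD libraries were below the Neg libraries in both states. The log2 fold change of 3xKD against Neg was -1.81 (SE 0.18, adjusted p = 5.15e-07) in ESCs and -0.78 (SE 0.048, adjusted p = 1.55e-09) in EpiLCs. Their difference, 1.03 (SE 0.19, adjusted p = 0.00854), was near the limit and was lost in 11 of 19 alternatives, in which adjusted p reached 0.0948 without 3xKD ESC replicate 3. From ESCs to EpiLCs Spry4 rose by 6.08 (SE 0.077) in Neg cells and 7.11 (SE 0.096) in 3xKD cells. The genes Gm54690 and Gm54691 overlap it on the other strand.

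Spred1, whose protein brings the RAS-inactivating neurofibromin to the membrane, moved less. The gene (ENSMUSG00000027351, chr2:116951540-117012760, plus strand, 7 exons) was at 54.1, 60.2 and 63.3 CPM in Neg ESCs, 36.4, 33.5 and 38.0 in 3xKD ESCs, 139, 146 and 141 in Neg EpiLCs, and 107, 109 and 101 in 3xKD EpiLCs. Again the 3xKD libraries were below the Neg libraries in both states. The knockdown effect was -0.73 (SE 0.059, adjusted p = 4.15e-08) in ESCs and -0.42 (SE 0.053, adjusted p = 5.8e-06) in EpiLCs, the latter under the fold limit and not called. The difference of 0.30 (SE 0.079, adjusted p = 0.0146) was not called. Spred1 rose from ESCs to EpiLCs by 1.26 (SE 0.055) in Neg cells and 1.56 (SE 0.058) in 3xKD cells.

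Markers of cell state moved with the line as well. In 3xKD EpiLCs the formative markers Otx2, Pou3f1, Dnmt3b and Sox3 summed to 813.4 to 826.2 CPM against 1638 to 1897 in Neg EpiLCs, with 3 of 4 called lower. The 7 naive markers summed to 390.2 to 401 CPM against 244.5 to 255.6, with 4 called higher and none lower. Neuroectoderm markers summed to 23.39 to 27.66 CPM in 3xKD EpiLCs and 68.33 to 71.35 in Neg EpiLCs, with 1 of 4 called lower. In ESCs the naive sum was 3740 to 3821 CPM in 3xKD cells and 4673 to 4822 in Neg cells, with 2 of 7 called lower, and the formative sums, most of which is Dnmt3b, overlapped, with Otx2 called lower (-1.20, SE 0.23) and Sox3 higher (0.59, SE 0.066). The part of these differences in the changes of the FGF ligands and feedback genes was not tested.

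Over the 12 libraries, Cacna1b, Foxp4 and Otx2 had the log2 CPM patterns most like that of Fgf5 among 15023 genes (Pearson r = 0.9942, 0.994 and 0.994). Dppa4, Lgr4 and Adam23 were most like Dusp6 (r = 0.9977, 0.997 and 0.9958). As 441 and 355 genes had an r above 0.95 with Fgf5 and Dusp6, and the libraries fall into groups by state, these values are descriptions of a shared difference between ESCs and EpiLCs.

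A list of 75 further genes of the pathway was read from the same fits, of which 74 were found and 71 tested. In 3xKD against Neg ESCs 10 were called higher and 9 lower, and in EpiLCs 9 higher and 5 lower (backgrounds called in either direction of 15.3% and 13.2% over all genes tested, and of 23.6% and 20.8% over those whose mean reached 1 CPM). The difference between the states passed for 16 of the 71, 10 with a more positive and 6 with a more negative effect in EpiLCs (background 10%, 4.76% and 5.27%). The median log2 fold change of the list was -0.04 in ESCs and 0.10 in EpiLCs. In EpiLCs against ESCs 13 were called higher and 7 lower in Neg cells, and 16 higher and 4 lower in 3xKD cells (backgrounds of 20.8% and 18.7% over all genes tested, and of 30.7% and 27.9% over those whose mean reached 1 CPM), with medians of 0.22 and 0.02. Counts by role below are descriptions, and no set test was made.

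Of 15 other ligands tested, 2 were called higher and 2 lower in 3xKD ESCs, and 2 higher in 3xKD EpiLCs. Backgrounds for these and for the receptors below were 15.3% of all genes tested in ESCs and 13.2% in EpiLCs. Fgf11, an intracellular family member, was higher in 3xKD cells by 1.59 (SE 0.20) in ESCs and 0.79 (SE 0.20) in EpiLCs, and Fgf13, another intracellular member, by 0.93 (SE 0.22) and 1.14 (SE 0.22). Fgf1, a ligand that binds all FGF receptors, was lower in 3xKD ESCs by -1.15 (SE 0.16), and its effect differed between states by 1.08 (SE 0.20, adjusted p = 0.00136). Between states, Fgf1 was higher in EpiLCs in both lines (0.64 in Neg and 1.72 in 3xKD cells), Fgf17 was lower in Neg EpiLCs (-0.89, SE 0.25) and Fgf11 was lower in 3xKD EpiLCs (-0.64, SE 0.18). Among 8 other receptors and co-receptors, 2 were called higher in each state and none lower: the receptor gene Fgfr3 by 1.63 (SE 0.20) in ESCs and 1.07 (SE 0.20) in EpiLCs, and the decoy-like receptor gene Fgfrl1 by 0.58 (SE 0.082) and 0.82 (SE 0.081). Fgfr3 was nonetheless low, with group means of 1.75 to 5.33 CPM. The co-receptor gene Klb was lower in EpiLCs in both lines (-1.19 in Neg and -1.34 in 3xKD cells) and Flrt3 was higher in Neg EpiLCs (0.83, SE 0.20).

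Of 19 adaptors and kinases, 3 were called higher and 1 lower in 3xKD ESCs, and 2 higher and 2 lower in 3xKD EpiLCs. The backgrounds were 15.3% and 13.2% of all genes tested, and 23.6% and 20.8% of those whose mean reached 1 CPM. Shc1, an adaptor between receptors and RAS, was higher by 0.83 (SE 0.034) in ESCs and 0.62 (SE 0.034) in EpiLCs. Mapk3, which encodes ERK1, was higher by 0.70 in both states (SE 0.053 and 0.052). Map2k2, which encodes the kinase MEK2, was lower by -0.69 (SE 0.059) and -0.64 (SE 0.057). Braf rose from ESCs to EpiLCs by 1.13 (SE 0.044) in Neg cells and 0.86 (SE 0.043) in 3xKD cells, and Frs3 was lower in 3xKD EpiLCs than in 3xKD ESCs (-0.82, SE 0.097). In the test of the difference between states, 2 of the 19 were called more positive and 4 more negative (10% of all genes passed). The largest in each direction were Hras (0.35, SE 0.074) and Braf (-0.27, SE 0.062).

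Of 14 other negative regulators tested, 1 was called higher and 2 lower in 3xKD ESCs, and 2 higher and 1 lower in 3xKD EpiLCs. The background was again 15.3% and 13.2% of all genes tested. Dusp9, a phosphatase of ERK on the X chromosome, had the largest increase of these, by 1.76 (SE 0.047) in ESCs and 1.26 (SE 0.046) in EpiLCs, the opposite direction to Dusp6 in ESCs. Its group means were 56.8 CPM in Neg ESCs, 193 in 3xKD ESCs, 77.1 in Neg EpiLCs and 185 in 3xKD EpiLCs. Spred3, a relative of Spred1, was lower by -1.14 (SE 0.098) and -1.41 (SE 0.068), and it rose from ESCs to EpiLCs in both lines (2.74 and 2.47). Il17rd, whose product Sef inhibits FGF signalling, was lower in 3xKD ESCs (-0.69, SE 0.063) and stood at 0.15 in EpiLCs; the effects differed by 0.84 (SE 0.083, adjusted p = 2.69e-06). Dusp1 was lower in Neg EpiLCs than in Neg ESCs (-0.88, SE 0.038).

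The 15 transcriptional targets, genes known to be switched on by ERK in many cell types, were called in both directions. In 3xKD ESCs 2 were called higher and 4 lower, and in 3xKD EpiLCs 1 higher and 2 lower (backgrounds of 15.3% and 13.2% of all genes tested). Myc, which encodes the growth-promoting transcription factor, was lower in 3xKD ESCs by -2.10 (SE 0.21) and stood at 0.28 in EpiLCs, a difference of 2.38 (SE 0.23, adjusted p = 1.94e-06). Egr1, an immediate early gene, showed the reverse, with -0.21 in ESCs and -1.44 (SE 0.085) in EpiLCs and a difference of -1.23 (SE 0.20, adjusted p = 0.000315). Ccnd1 was lower in both states, as given above, and Ier3 was higher in both, by 1.90 (SE 0.13) and 2.05 (SE 0.14). From ESCs to EpiLCs the largest rise of the 15 in Neg cells was that of Egr1 (4.67, SE 0.12), and in 3xKD cells that of Myc (5.99, SE 0.15). The differences of -1.23 and 2.38 are smaller in size than these rises, so both genes rose in both lines. Ier3 was lower in Neg EpiLCs than in Neg ESCs (-0.59, SE 0.16).

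**Figure D5:**
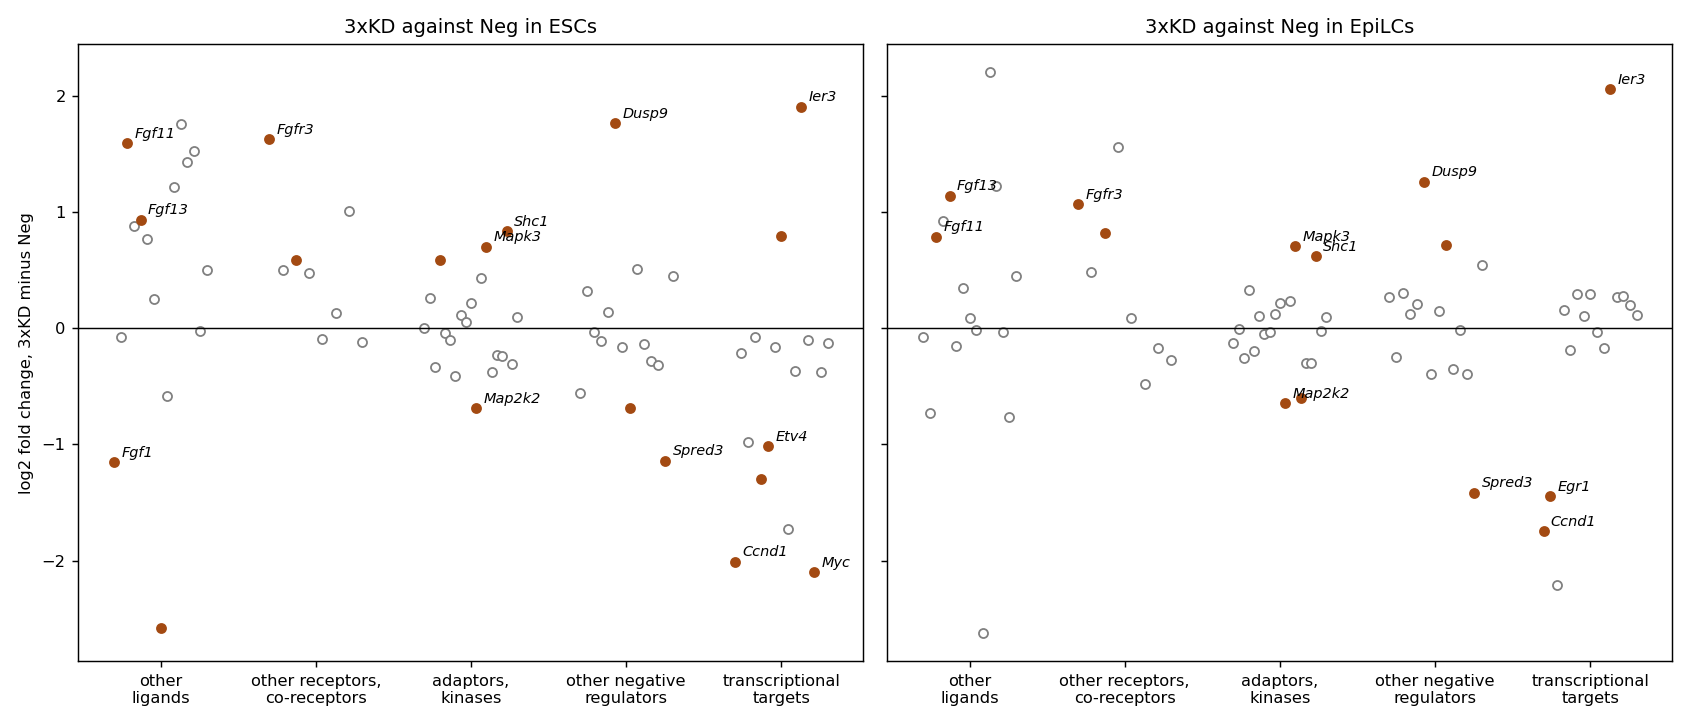
Log2 fold change of 3xKD against Neg cells (y axis) for 71 further genes of the pathway by role in ESCs (left) and EpiLCs (right), with 1 point per gene, filled where called, and names beside some of the called genes. Dusp9 and Ier3 lie above 1 and Spred3 and Ccnd1 below -1 in both states, whereas Myc lies at -2.10 in ESCs and at 0.28, not called, in EpiLCs.

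Chromosome 16 stood apart in 3xKD cells, with a median log2 fold change of 0.298 over 454 genes in ESCs and 0.3 in EpiLCs, and the medians of the chromosomes that hold the 10 genes lay between -0.05 and 0.04. None of the 10 genes is on chromosome 16. Of the pathway list 4 genes are, and 1 of them (Lztr1, 0.72 in EpiLCs) was called; the part of the chromosome-wide shift in its value was not tested.

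Fgf5 has 2 annotated transcripts in the tables. The shorter, ENSMUST00000200059 (2 exons and 363 coding bases, against 792 in the full-length form), had 20.2, 21.6 and 14.2 estimated counts in the Neg EpiLC libraries, 3.78%, 5.16% and 2.73% of the counts of the gene, and 20.2%, 25.9% and 15.3% of its TPM. It had 0 counts in all 3xKD EpiLC libraries, where 0 of 214 to 279 counts allows a share of up to 1.08% to 1.40% (3 counts, counting error only). In ESCs the gene had too few counts to say. The division of reads between the forms is an estimate by Salmon, and it was not tested.

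Promoter windows of 250 bases before to 50 after the start site were searched on both strands for the ETS core CCGGAA, bound by the ETS factors that ERK activates, and for the AP-1 site TGANTCA. RefSeq windows (GRCm38.p6) were found for 6 of the 10 genes. The ETS core was present for 2 of the 6, Fgf5 (241 bases before the start site) and Spry2 (33 bases after it), against 14.9% of 32851 windows, and the AP-1 site for none, against 7.81%. In windows around GENCODE start sites on GRCm39, which cover all 10 genes and were added after the data were seen, the ETS core was present for Fgf5 and Spry4 (16.9% of 21770 windows) and the AP-1 site for none (7.14%). Which genes held a match thus changed with the annotated start site.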

How the data were processed

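Libraries were prepared by ribosomal RNA depletion with a directional kit and sequenced single-end, per the study's methods (the labels give polyA RNA as the molecule). The authors trimmed reads with Trim Galore 0.6.7, mapped them with STAR 2.7.9a to GRCm39 with Ensembl annotation and quantified transcripts with Salmon 1.10.1. In the deposited tables the authors give, for every transcript, an estimated count without normalization and a TPM value adjusted by Salmon for length and library total.

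For each gene the estimated counts of its transcripts were added up and rounded to whole numbers. The 12 libraries held 11221023 to 19652197 counts each, so that genes with few counts carry large standard errors. Genes with at least 10 counts over all libraries (25446 of 57180) were fitted with edgeR 4.0.16 in R 4.3.3 (TMM factors, quasi-likelihood test, 4 groups and all 12 libraries in 1 fit, Benjamini-Hochberg adjustment over all genes tested). A call needed both an adjusted p under 0.01 and a log2 change of more than 0.58 in size, or the adjusted p alone for the difference of the knockdown effect between states. Standard errors were taken as the absolute change over the square root of the F statistic, and CPM used the TMM factors. Counts, levels and transcript shares without a test are descriptions. The fit was tested on simulated data.

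Libraries were grouped by their titles. Alternatives were DESeq2 1.42.0, RLE factors, library size alone, transcript-length offsets, other filters, other thresholds, only the groups compared, the replicate number as a block, and each library left out in turn. Positions are those of canonical transcripts in GENCODE vM39 on GRCm39, which matched 56620 of the 57180 genes, and the IIIb and IIIc exons were told apart by their positions there. Their sequences are not reported here. RefSeq promoter windows are on GRCm38.p6.

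The 10 genes, the pathway list and the marker lists were chosen with earlier results of these data known, and support nothing by themselves. Genes named from the pathway list are those called with the largest absolute log2 fold change in each direction, comparison and role where the mean over all libraries reached 1 CPM. Fgfrl1, Il17rd in ESCs, Otx2 and Sox3 in ESCs, Lztr1 and the Egr1 and Myc values that were not called were named after their values were seen. Reads of antisense or overlapping genes were divided by the authors' counting, whose strand setting is not given in the sources used here.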

Additional observations from a re-analysis of the deposited data

Results flagged for a closer look

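The knockdown effect (3xKD against Neg) differed between EpiLCs and ESCs for 6 of the 10 genes in the test of that difference at an adjusted p under 0.01 (10% of all genes passed it). The effect in EpiLCs minus that in ESCs was -1.69 on the log2 scale for Fgf4, -2.86 for Fgf15 and -1.86 for Fgfr2. It was 1.56 for Dusp6, 0.94 for Spry2 and 1.03 for Spry4. For Fgf4, Fgf15, Fgfr2 and Dusp6 the 3xKD libraries lay on opposite sides of the Neg libraries in the 2 states, whereas for Spry2 and Spry4 they lay below them in both. The difference for Fgf15 involves 2 to 13 counts per ESC library, and that for Spry4 5 to 37. The Spry4 difference was lost in 11 of 19 alternatives, and with transcript-length offsets Spry2 alone of the 3 genes with a more positive effect passed.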

How the results depend on the processing

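Over 19 or 20 alternatives per value, no called log2 fold change of the 10 genes changed direction. Among the log2 fold changes of Fgf4, Fgf5, Spry2 and Spred1 no knockdown call was lost. With transcript-length offsets Dusp6 lost its knockdown calls and its difference between states (given beside its values) and Spry4 its difference between states, so that 0 of the 10 genes were called higher in 3xKD EpiLCs and 1 had a more positive effect in EpiLCs, and Fgfr1 stood at 0.53 in 3xKD against Neg ESCs in place of 0.20. The same offsets left 5 and 3 pathway genes called higher for 3xKD against Neg in ESCs and EpiLCs, 3 and 2 called lower for EpiLCs against ESCs in Neg and 3xKD cells, 5 more positive and 2 more negative for the difference between states, and 731 of all genes for that difference, against 2553. Fgf15 lost its ESC call under DESeq2 (adjusted p = 0.0118) and with only the groups compared (0.0291), leaving 1 gene called higher in each case; without single replicates the number was 1 to 2. With only the groups compared 4 pathway genes were called lower in Neg EpiLCs; without single replicates 3 to 7 were. For the difference between states, 2 pathway genes were more negative with library size alone and 2 to 7 without single replicates. Spry4 lost its difference between states under DESeq2 (0.0118), with offsets (0.024) and without single libraries, and Spred1 gained one in 5 alternatives. The cause of these changes was not tested.

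At an adjusted p under 0.05 with no fold limit, 10142, 9694, 11231, 10838 and 4127 of the 25446 genes tested passed in the 5 tests (3xKD against Neg in ESCs and EpiLCs, EpiLCs against ESCs in Neg and 3xKD cells, and the difference). Of the 10 genes, 4 were then higher in 3xKD ESCs, 2 higher in 3xKD EpiLCs and 1 lower in Neg EpiLCs. The 4 feedback genes stayed lower in 3xKD ESCs. In 3xKD EpiLCs Fgfr2 (-0.31) and Spred1 (-0.42) joined the 5 genes called lower. Of the pathway list, 18 were higher and 24 lower in 3xKD ESCs, 23 and 17 in 3xKD EpiLCs, 27 and 17 in Neg EpiLCs against ESCs, and 26 and 15 in 3xKD EpiLCs against ESCs.

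No pairing of libraries by replicate number was seen: none of the 18 same-numbered pairs had a correlation of deviations above 0.1 (range -0.135 to 0.0999). Differently numbered pairs reached 0.181. With 3 libraries per group a weak pairing could be missed. With the replicate number as a block, 2 of the 10 genes were called higher and 4 lower in 3xKD ESCs and 1 and 5 in 3xKD EpiLCs, as without it, and 3792 and 3277 of all genes were called.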
